A study of Mus musculus with 12 samples.

Results

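The enzymes that break down tryptophan were followed in tumours grown from CR705, a pancreatic cancer line of mouse. Their 10 genes, Ido1, Ido2, Tdo2, Afmid, Kyat1, Kyat3, Kmo, Kynu, Haao and Il4i1, were found by symbol among the 43432 genes of the count table. RNA came from 12 tumour samples: 6 from CR705 cells labelled WT and 6 from CR705 cells labelled AHRKO, knockouts of the aryl hydrocarbon receptor (AHR). No label gives the age, strain or Ahr genotype of the host, a separate animal for each replicate, or whether the knockout line is 1 clone, so the p-values cover the spread among these 12 samples and no more, and line and genotype cannot be told apart.

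Tryptophan is opened by the dioxygenases IDO1, IDO2 and TDO2 to formylkynurenine, which the formamidase AFMID turns into kynurenine. From kynurenine the path divides: the aminotransferases KYAT1 and KYAT3 form kynurenic acid, while KMO, KYNU and HAAO lead through hydroxykynurenine and hydroxyanthranilate towards quinolinic acid and NAD. IL4I1 is a secreted oxidase that acts on the same and related amino acids. Kynurenine and products of IL4I1 are ligands of AHR, and interferon gamma is the classical inducer of Ido1.

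Library totals ran from 14772343 to 35881469 counts. Ahr itself ranged from 101 to 125 CPM (counts scaled by TMM to the same total per library) in WT and from 62.5 to 143 in AHRKO libraries and was not called (adjusted p = 0.606, edgeR's quasi-likelihood test). A knockout can leave its transcript in place, so this does not check the labels. AHRKO replicate 1 stood apart. Its summed level of 10 leukocyte genes was 2871 CPM against at most 1073 in any other library, and its summed level of 8 ductal epithelial genes was 695 against 3004 to 4857. The acinar markers Ptf1a and Amy2a5 were at 0 counts in all libraries, and of the 8 acinar genes Cela1 alone was tested, at 21.1 CPM in WT and 20.9 in AHRKO. In bulk samples such as these, fewer cells of a type and less RNA per cell cannot be told apart.

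Transcripts of the quinolinic acid branch, of Ido2 and of Il4i1 were higher in AHRKO tumours. Of the 10 genes, 9 had enough counts to be tested. Ido2, Kmo, Kynu, Haao and Il4i1 rose, 5 in all, at an adjusted p under 0.05, where 15.9% of the 15449 tested genes rose. Ido1 had the largest log2 fold change (AHRKO over WT) and missed the threshold. Kyat1, Kyat3 and Afmid did not pass, and Tdo2 was too low to test. No member fell, where 13.6% of all tested genes did. At an unadjusted p under 0.05 the count of members lower was 1, Afmid, and DESeq2 and limma-voom with quality weights each called 1 lower. The median log2 fold change was 1.58 over the 9 tested members and 0.02 over all tested genes. Neither that median nor the count of 5 genes beside the 15.9% can serve as support. Ido1, Kynu, Kmo and Haao passed the filter on low counts only through their AHRKO libraries.

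**Figure D1:**
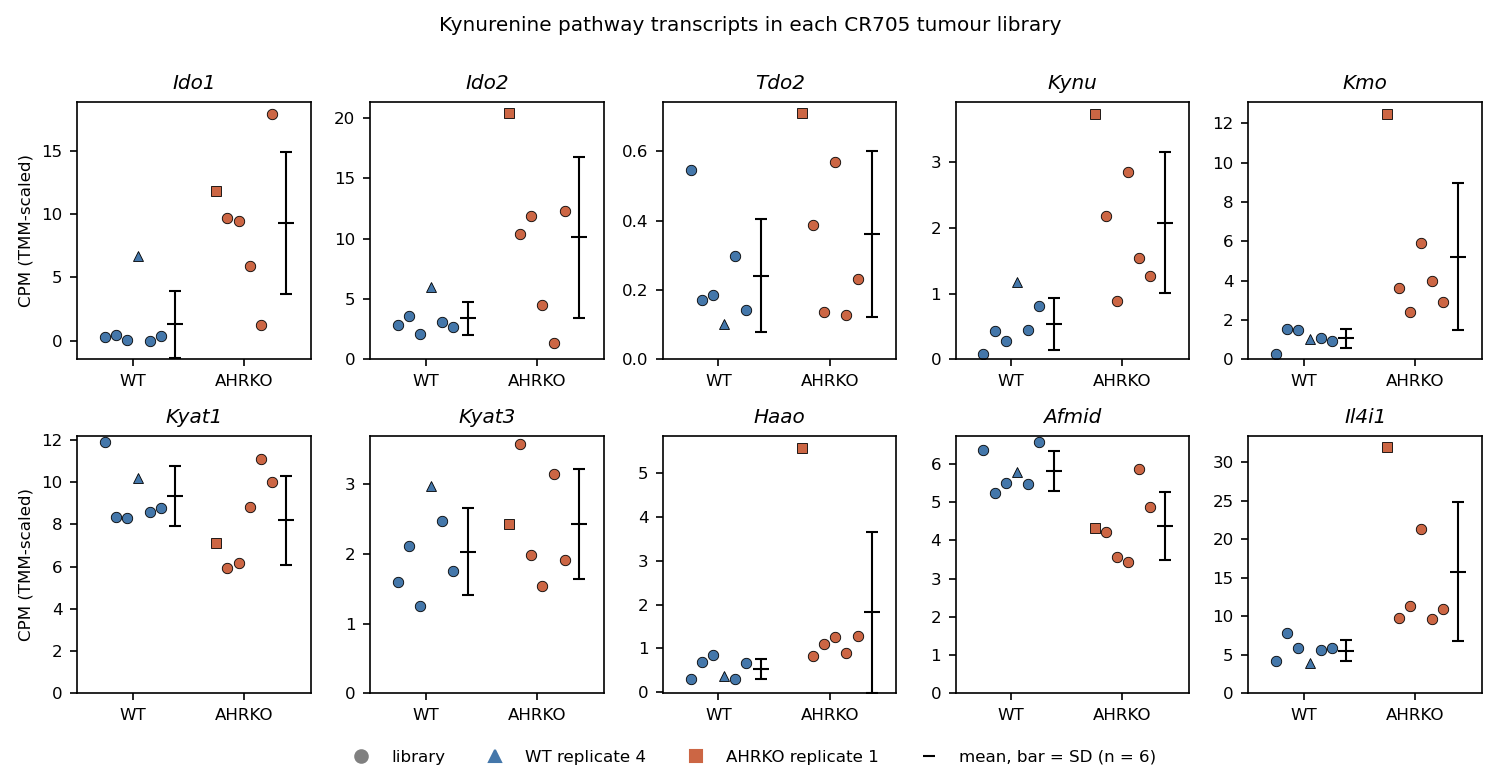
TMM-scaled counts (CPM) of each of the 10 genes in the 12 libraries. Circles, triangles and squares are libraries, and the black mark with its bar is the mean with the SD (n = 6). Kmo and Il4i1 do not overlap between the groups, a separation upwards that 6.03% of all tested genes showed. WT replicate 4 (triangle) is far above the other WT libraries for Ido1. AHRKO replicate 1 (square) is the highest library for Ido2, Tdo2, Kynu, Kmo, Haao and Il4i1.

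Ido1, the inducible first enzyme of the path (ENSMUSG00000031551, mm10 chromosome 8, 24584136 to 24597009, minus strand), was low in most WT tumours. Its lowest, median and highest levels were 0, 0.316 and 6.65 CPM in WT and 1.22, 9.54 and 17.9 CPM in AHRKO. WT replicate 4 held the 6.65 CPM, from 130 counts, while the other 5 WT libraries lay between 0 and 0.428 CPM. In WT replicate 5 there were 0 counts, which allows up to 0.149 CPM by counting error alone. All 6 AHRKO libraries were above the WT median and 4 were above WT replicate 4, so the groups overlapped. The log2 fold change was 2.87 ± 1.05 (SE), which was not called (adjusted p = 0.0557, edgeR's quasi-likelihood test). WT replicate 4 decided that call: without it the log2 fold change was 5.29 (adjusted p = 0.00171), and the WT mean was 0.222 in place of 1.29 CPM. Without AHRKO replicate 5, the lowest AHRKO library, Ido1 was also called, at 3.10 (adjusted p = 0.0393). DESeq2 called it at 2.86 (adjusted p = 0.0373) and limma-voom with quality weights at 4.48 (adjusted p = 0.00428).

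Ido2, the tandem paralog of Ido1 with lower catalytic activity, lies beside it on the same strand (ENSMUSG00000031549, mm10 chromosome 8, 24531892 to 24576333). Lowest, median and highest levels of Ido2 were 2.10, 2.97 and 5.99 CPM in WT and 1.35, 11.1 and 20.4 CPM in AHRKO. The highest WT value was again that of replicate 4. AHRKO replicate 5, at 1.35 CPM from 21 counts, was the lowest of all 12 libraries, and 4 of 6 AHRKO libraries were above all WT. Ido2 rose by a log2 fold change of 1.58 ± 0.49 (SE, adjusted p = 0.0297, edgeR's quasi-likelihood test). The call ended when WT replicate 1, 3, 5 or 6 or AHRKO replicate 3 or 6 was left out, with log2 fold changes of 1.49 to 1.56 and adjusted p of 0.0506 to 0.0624.

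The position of this gene pair sets it against its surroundings. Over the 826 tested genes of chromosome 8 the median log2 fold change was -0.31, with 40.0% called lower and 6.54% called higher. Of the 5 tested genes on either side of the pair, none was higher at an adjusted p under 0.05 or at a log2 fold change above 0. Adam3 stood at -2.48 (adjusted p = 0.00549), Adam32 at -1.98 (adjusted p = 0.00871), Plekha2 at -0.97 (adjusted p = 0.000479) and Golga7 at -0.20 (adjusted p = 0.0303, quasi-likelihood test of edgeR for all). The nearest tested gene on the Ido2 side, Tcim, was at -0.11 and was not called (adjusted p = 0.779).

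Tdo2, the dioxygenase of liver (ENSMUSG00000028011, mm10 chromosome 3, 81957090 to 81976202, minus strand), had 2 to 13 counts in a library. Its lowest, median and highest levels were 0.102, 0.179 and 0.546 CPM in WT and 0.129, 0.309 and 0.712 CPM in AHRKO, and the groups overlapped over most of their range. Fitted with no filter, its log2 fold change was 0.56 (adjusted p = 0.481), so a difference was not detectable at this depth. The 8 hepatocyte genes summed to 1.88 to 9.08 CPM in WT and 2.52 to 23.8 in AHRKO. Of these, named after their values were seen, Alb averaged 0.128 CPM in WT and 0.108 in AHRKO, while Cyp2e1 was at 0 to 0.248 CPM in WT and 0.29 to 20.7 in AHRKO, highest in replicate 4. Their part in the level of Tdo2 was not tested.

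Afmid, which makes kynurenine from the product of the dioxygenases (ENSMUSG00000017718, mm10 chromosome 11, 117825924 to 117839908, plus strand), leaned the other way. Its lowest, median and highest levels were 5.23, 5.64 and 6.57 CPM in WT and 3.42, 4.27 and 5.86 CPM in AHRKO. The WT range held AHRKO replicate 5, at 5.86 CPM, and lay above the 5 remaining AHRKO libraries. The log2 fold change was -0.41 ± 0.16 (SE) and did not pass (adjusted p = 0.0666, edgeR's quasi-likelihood test). It did pass without AHRKO replicate 5 (-0.51, adjusted p = 0.0229), with DESeq2 (adjusted p = 0.0242) and with limma-voom (adjusted p = 0.0259). In GENCODE, 44.2% of the exon bases of Afmid are shared with Gm20708, a model on the same strand that was at 0 counts in all libraries.

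Neither aminotransferase gene of the kynurenic acid branch passed the test. Kyat1 (ENSMUSG00000039648, mm10 chromosome 2, 30185124 to 30205847, minus strand) had a lowest, median and highest level of 8.30, 8.70 and 11.9 CPM in WT and 5.95, 7.98 and 11.1 CPM in AHRKO. AHRKO replicates 1, 2 and 3 lay below all WT libraries and the other 3 AHRKO libraries lay within the WT range. The log2 fold change of Kyat1 was -0.19 ± 0.18 (SE, adjusted p = 0.445, edgeR's quasi-likelihood test). Kyat3 (ENSMUSG00000040213, mm10 chromosome 3, 142701051 to 142746870, plus strand) ran through 1.26, 1.94 and 2.97 CPM in WT and 1.54, 2.21 and 3.58 CPM in AHRKO, with the groups overlapping. Its log2 fold change was 0.26 ± 0.26 (SE, adjusted p = 0.478, edgeR's quasi-likelihood test).

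Kmo, the mitochondrial monooxygenase that commits kynurenine to the quinolinic acid branch (ENSMUSG00000039783, mm10 chromosome 1, 175620381 to 175662116, plus strand), had the smallest adjusted p of the 10 genes. Lowest, median and highest levels of Kmo were 0.252, 1.06 and 1.54 CPM in WT and 2.40, 3.81 and 12.5 CPM in AHRKO. Every AHRKO library was above every WT library, a separation that 6.03% of tested genes showed. Kmo passed the filter only through its AHRKO libraries, so that share lends it no support. Kmo rose by 2.29 ± 0.47 (SE) on the log2 scale (adjusted p = 0.00443, edgeR's quasi-likelihood test). AHRKO replicate 1 held the 12.5 CPM and the next library 5.93, and without replicate 1 the log2 fold change was 1.82 (adjusted p = 0.00308).

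Kynu, the hydrolase that follows Kmo (ENSMUSG00000026866, mm10 chromosome 2, 43555329 to 43682715, plus strand), was low throughout. Levels of Kynu ran from 0.0841 through a median of 0.438 to 1.18 CPM in WT, and from 0.893 through 1.86 to 3.74 CPM in AHRKO. WT replicate 4 was again the highest WT library and exceeded AHRKO replicate 3, and the other 5 AHRKO libraries were above all WT. The log2 fold change was 1.96 ± 0.51 (SE, adjusted p = 0.0128, edgeR's quasi-likelihood test), and it was called with each library left out in turn, at 1.73 to 2.34.

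Haao, the dioxygenase that forms the precursor of quinolinic acid (ENSMUSG00000000673, mm10 chromosome 17, 83831156 to 83847963, minus strand), depended on AHRKO replicate 1 for its size. Its lowest, median and highest levels were 0.294, 0.512 and 0.839 CPM in WT and 0.823, 1.18 and 5.58 CPM in AHRKO. The 5.58 CPM came from AHRKO replicate 1, and the 5 remaining AHRKO libraries lay between 0.823 and 1.27, the lowest of them just under the highest WT library. With all libraries the log2 fold change was 1.78 ± 0.52 (SE, adjusted p = 0.023, edgeR's quasi-likelihood test), and without AHRKO replicate 1 it was 1.01 (adjusted p = 0.0261). The call ended without WT replicate 1, 4 or 5, at log2 fold changes of 1.65 to 1.69 and adjusted p of 0.0509 to 0.0525.

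Il4i1, the secreted amino acid oxidase of antigen-presenting cells (ENSMUSG00000074141, mm10 chromosome 7, 44816387 to 44840809, plus strand), had the most reads of the genes that rose. Lowest, median and highest levels were 3.94, 5.74 and 7.77 CPM in WT and 9.59, 11.2 and 32.0 CPM in AHRKO. The groups did not overlap, a separation upwards that 6.03% of all tested genes showed. AHRKO replicates 1 and 4, at 32.0 and 21.3 CPM, were above the other 4, which lay between 9.59 and 11.3. Il4i1 rose by 1.51 ± 0.32 (SE) on the log2 scale (adjusted p = 0.00524, edgeR's quasi-likelihood test), and by 1.18 without AHRKO replicate 1 (adjusted p = 0.00334). In GENCODE 83.9% of its exon bases are also exon of Tbc1d17 on the opposite strand. The strand setting of the counting is not given in the sources used here, so reads of the 2 genes may not be told apart. Tbc1d17 was at 38.9 ± 4.09 CPM in WT and 47.7 ± 6.23 in AHRKO (SD, n = 6), a log2 fold change of 0.29 (adjusted p = 0.046). Chromosome 7 as a whole had a median log2 fold change of 0.21 over 1164 tested genes, of which 25.3% were called higher.

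**Figure D2:**
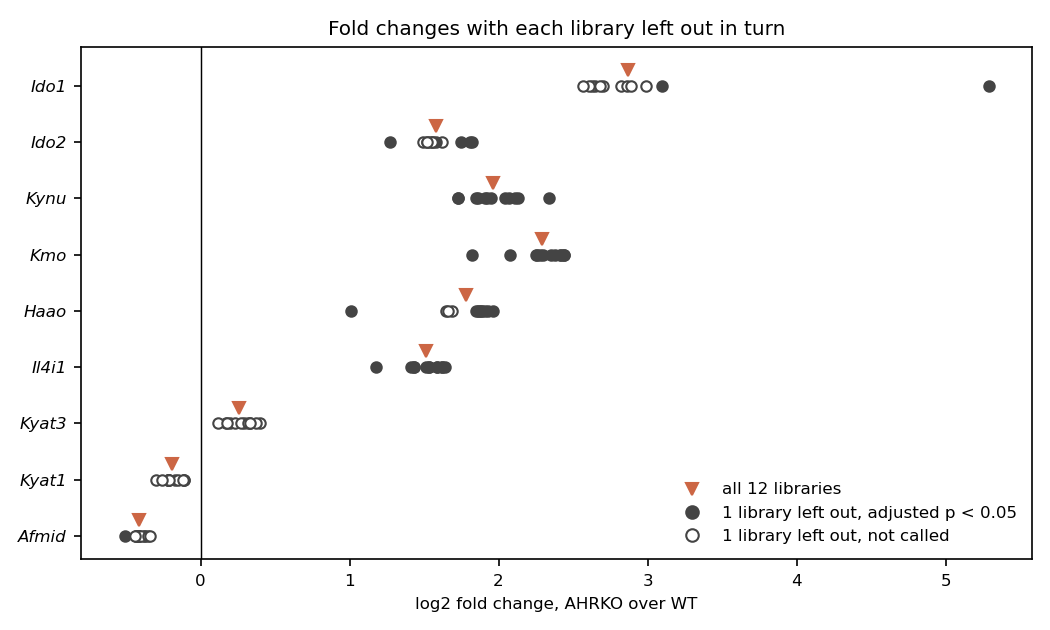
Log2 fold change (AHRKO over WT) of the 9 tested genes with all 12 libraries (triangles) and with each library left out in turn (circles, filled where the adjusted p is under 0.05). The point at 5.29 for Ido1 is the fit without WT replicate 4, and the point at 1.01 for Haao is the fit without AHRKO replicate 1.

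The starts of Kmo, Haao and Il4i1 are shown because these genes rose in tumours of cells labelled as lacking AHR, whose binding core is GCGTG. RefSeq windows of 250 bases before the gene's start (GRCm38.p6, the assembly of mm10) were matched for 7 of the 10 genes, and those of Ido1, Ido2 and Kynu were not used here. In the 3 windows, written 5′ to 3′ on the gene's strand, capitals mark the core GCGTG on either strand.
Kmo, chr1:175631943-175632192, plus strand: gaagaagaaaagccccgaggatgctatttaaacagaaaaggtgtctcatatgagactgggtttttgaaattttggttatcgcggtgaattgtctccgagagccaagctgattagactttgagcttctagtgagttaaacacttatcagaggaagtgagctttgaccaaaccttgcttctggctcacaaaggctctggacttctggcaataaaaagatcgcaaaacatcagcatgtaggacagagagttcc
Haao, chr17:83846791-83847040, minus strand: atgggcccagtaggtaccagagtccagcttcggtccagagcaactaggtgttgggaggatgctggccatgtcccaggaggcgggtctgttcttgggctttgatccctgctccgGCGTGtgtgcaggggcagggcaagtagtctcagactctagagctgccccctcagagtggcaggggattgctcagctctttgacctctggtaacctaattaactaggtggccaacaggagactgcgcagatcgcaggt
Il4i1, chr7:44836038-44836287, plus strand: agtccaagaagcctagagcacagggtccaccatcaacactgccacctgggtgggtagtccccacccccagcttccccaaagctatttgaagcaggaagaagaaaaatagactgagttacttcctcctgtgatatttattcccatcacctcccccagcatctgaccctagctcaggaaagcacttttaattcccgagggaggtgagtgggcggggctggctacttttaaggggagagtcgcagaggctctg
Haao holds 1 match, from 137 to 133 bases before the start, and the letters are not in the windows of Kmo and Il4i1. Of all 32851 RefSeq windows of this length, 28.2% hold the core on either strand. Among the other genes, Tdo2 and Kyat1 hold 1 match each, Kyat3 holds 2, and Afmid holds none. Neither the interferon-stimulated element, searched as GAAA, any 2 bases and GAAA, nor the gamma-activated site searched as TTCNNNGAA was found in any of the 7 windows, on either strand. These are in 2.98% and 7.02% of all windows. A match is a description of letters only, and the RefSeq starts of Kmo, Haao and Il4i1 lie downstream of the GENCODE gene starts given above.

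Per length of exon, the order of the genes changed between the groups. On the RPKM scale (CPM per 1000 exon bases of the GENCODE gene) WT tumours had most Kyat1, at 3.20 ± 0.49 (SD, n = 6), and no WT library of Afmid, the next gene at 1.64 ± 0.151, reached that range. Then came Il4i1 at 1.36 ± 0.341, Ido2 at 0.928 ± 0.376 and Ido1 at 0.709 ± 1.44. The place of Ido1 rested on WT replicate 4: without it Ido1 was at 0.121 ± 0.106 RPKM (SD, n = 5), below Kmo at 0.226 and Kyat3 at 0.194. Kmo, Kyat3, Haao, Kynu and Tdo2 followed at 0.224 down to 0.0621 RPKM. From Afmid on, the ranges of all neighbours in the order overlapped. AHRKO tumours had most Ido1, at 5.10 ± 3.07, followed by Il4i1 at 3.88 ± 2.22, Kyat1 at 2.80 ± 0.721 and Ido2 at 2.78 ± 1.83, and each neighbouring pair in the AHRKO order overlapped. Tdo2 was last in both groups, but without WT replicate 4 Kynu, at 0.0666 RPKM, came after Tdo2, at 0.0693. The Il4i1 level per length takes in the 83.9% of its exon bases shared with Tbc1d17. That of Afmid takes in the 44.2% of its exon bases shared with Gm20708. Whether reads of these bases were counted for Il4i1 or Afmid is not known. If they were not, both levels per length are too low. The top places of Kyat1 in WT and of Ido1 in AHRKO are therefore not settled against Il4i1, and the gap of Afmid below Kyat1 may rest on the shared bases.

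The libraries in which single members were high differed among the members. AHRKO replicate 1 was the highest AHRKO library for 6 members: Ido2, Tdo2, Kynu, Kmo, Haao and Il4i1. For Ido1 it was AHRKO replicate 6, at 17.9 CPM, ahead of replicate 1 at 11.8. Among WT libraries, replicate 4 was highest for 4 members: Ido1, Ido2, Kynu and Kyat3. AHRKO replicate 4 was second in its group for Kynu, Kmo and Il4i1, at 2.85, 5.93 and 21.3 CPM, and second lowest for Ido1 and Ido2, at 5.87 and 4.50 CPM.

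Irf1, a transcription factor induced by interferon gamma, and leukocyte markers are given beside these differences. Irf1 was at 75.9 CPM in WT replicate 4 against at most 35.5 in other WT libraries. In AHRKO it was at 266, 203, 115, 86.3, 62.7 and 180 CPM in replicates 1 to 6. The summed leukocyte genes gave WT replicate 4 330 CPM, inside the WT range of 289 to 532, and reached, in AHRKO replicates 1 to 6, 2871, 966, 774, 1073, 520 and 879 CPM. The summed T and NK cell genes were highest among WT libraries in replicate 4, at 17.2 CPM against 4.16 to 13.5, and were at 232, 51.5, 38.5, 38.2, 17.4 and 49.9 CPM in AHRKO replicates 1 to 6. Cd8a, a marker of cytotoxic T cells named after its values were seen, was at 3.74 CPM in WT replicate 4 against at most 0.171 in the other WT libraries. Cd8a thus made up 3.74 of the 17.2 CPM of that sum. Cd3d, Cd3g and Nkg7 were also highest there among WT libraries, at 1.94, 2.00 and 2.00 CPM. Cd3e, Cd4, Trac, Klrk1 and Ncr1 were not, and Ncr1 was at its lowest WT level there, 0.0512 CPM. Thus WT replicate 4, high in Ido1, was high in Irf1 and in the T and NK cell sum and not in the leukocyte sum. AHRKO replicate 5, lowest in its group for Ido1 and Ido2, was lowest in its group for Irf1 and for both sums. The order was not shared throughout: AHRKO replicate 4, second lowest for Ido1 and Ido2, had the second highest leukocyte sum, and AHRKO replicate 6, highest for Ido1, the fourth. The part of these genes in the differences of the members was not tested.

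**Figure D3:**
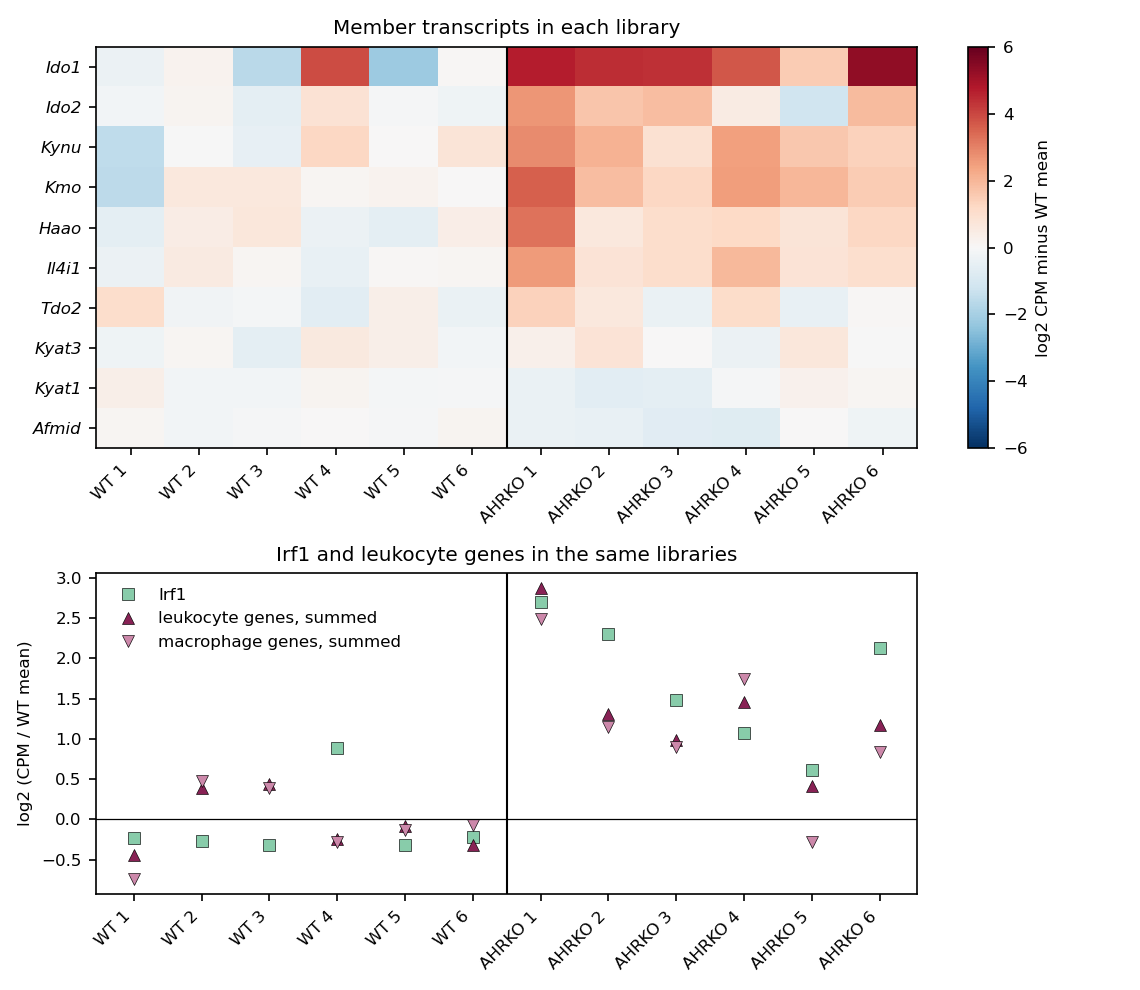
Upper panel: log2 CPM (prior count 2) of each member in each library, minus the mean of its WT libraries. Lower panel: Irf1 and the summed leukocyte and macrophage genes in the same libraries, as log2 of the CPM over the WT mean. WT replicate 4 is high for Ido1 and Irf1 (75.9 CPM), and AHRKO replicate 1 is highest for the leukocyte sum (2871 CPM).

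Of 14 listed inducers and regulators of Ido1, 13 were tested, 6 rose in AHRKO and 1 fell, against 15.9% and 13.6% of all tested genes. Irf8, a factor of myeloid cells, rose from 26.0 ± 5.77 to 111 ± 62.9 CPM (SD, n = 6). Log2 fold changes were 2.10 for Irf8 (adjusted p = 0.000846), 0.56 for the receptor chain gene Ifngr2 (adjusted p = 0.00117) and 2.22 for the feedback inhibitor gene Socs1 (adjusted p = 0.00175). For Irf1 it was 1.89 (adjusted p = 0.00254) and for the cytokine gene Tnf 1.61 (adjusted p = 0.0188, edgeR's quasi-likelihood test for all). The gene that fell was Ptgs2, which encodes the inducible cyclooxygenase, at -1.56 (adjusted p = 0.0047). Ifng itself, named after its values were seen, was too low to test, at 0 to 0.716 CPM in WT with the highest value in replicate 4, and at 0.0643 CPM in AHRKO replicate 5 to 4.63 CPM in AHRKO replicate 1.

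Among further steps of kynurenine use and NAD synthesis, of 12 listed genes 10 were tested, and 3 fell, against 13.6% of all tested genes: Gcdh, the mitochondrial glutaryl-CoA dehydrogenase, at -0.82 ± 0.12 (SE, adjusted p = 0.000857), Got2, the mitochondrial aspartate aminotransferase that can also form kynurenic acid, at -0.46 ± 0.09 (adjusted p = 0.00287), and Nmnat2, an NAD-forming enzyme, at -0.71 ± 0.24 (adjusted p = 0.0441, quasi-likelihood test of edgeR). Got2 was at 169 to 201 CPM in WT and 107 to 148 in AHRKO, and Gcdh at 21.5 to 33.9 and 14.8 to 19.2, with no overlap for either, a separation downwards that 7.35% of all tested genes showed. Both lie on chromosome 8, where 40.0% of tested genes were called lower. Nmnat2 was not called without AHRKO replicate 1, at -0.64 (adjusted p = 0.0613). That fit called 2 genes named after their values were seen: Naprt lower, at -0.49, and Nadk higher, at 0.27 (adjusted p = 0.0313 for each, edgeR's quasi-likelihood test). With all libraries no gene of this list rose. At an unadjusted p under 0.05 the count of genes higher was 1, while DESeq2 called 0 and limma-voom 2. Qprt, which acts on quinolinic acid itself and was named after its values were seen, had 1.07 ± 0.549 CPM in WT and 1.1 ± 0.704 in AHRKO (SD, n = 6; adjusted p = 0.978, edgeR's quasi-likelihood test). Aadat and Acmsd were too low to test.

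Lists of other uses of tryptophan were read against the 15.9% of all tested genes that rose and the 13.6% that fell. In the serotonin and tryptamine list 5 of 9 genes were tested: Maoa fell, at -0.42 (adjusted p = 0.0269), and Maob rose, at 0.98 (adjusted p = 0.0439), both monoamine oxidases. Maob was not called without AHRKO replicate 1, at 0.85 (adjusted p = 0.072). Tph1, which starts the serotonin branch and was named after its values were seen, was at 1.53 and did not pass (adjusted p = 0.0588). DESeq2 called 2 genes of this list higher and limma-voom 1. Among transporters and tRNA synthetases 8 of 10 were tested, 3 rose and 1 fell. Slc3a2, the heavy chain of the large neutral amino acid transporters, rose by 0.44 on the log2 scale (adjusted p = 0.0241), Wars, the cytosolic tryptophanyl-tRNA synthetase, by 0.82 (adjusted p = 0.0341), and the light chain gene Slc7a8 by 0.90 (adjusted p = 0.0371). Slc7a6, another light chain gene on chromosome 8, was at -1.08 (adjusted p = 0.000775, quasi-likelihood test of edgeR for all). Slc7a5, named after its values were seen, was at 0.48 and was not called (adjusted p = 0.082). Without AHRKO replicate 1 it was called higher, at 0.62 (adjusted p = 0.00202, same test). Wars was at 170 CPM in WT replicate 4 against 78.1 to 91.8 in the other WT libraries, and highest in AHRKO replicate 6, at 293 CPM, the libraries in which Ido1 was highest in each group.

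**Figure D4:**
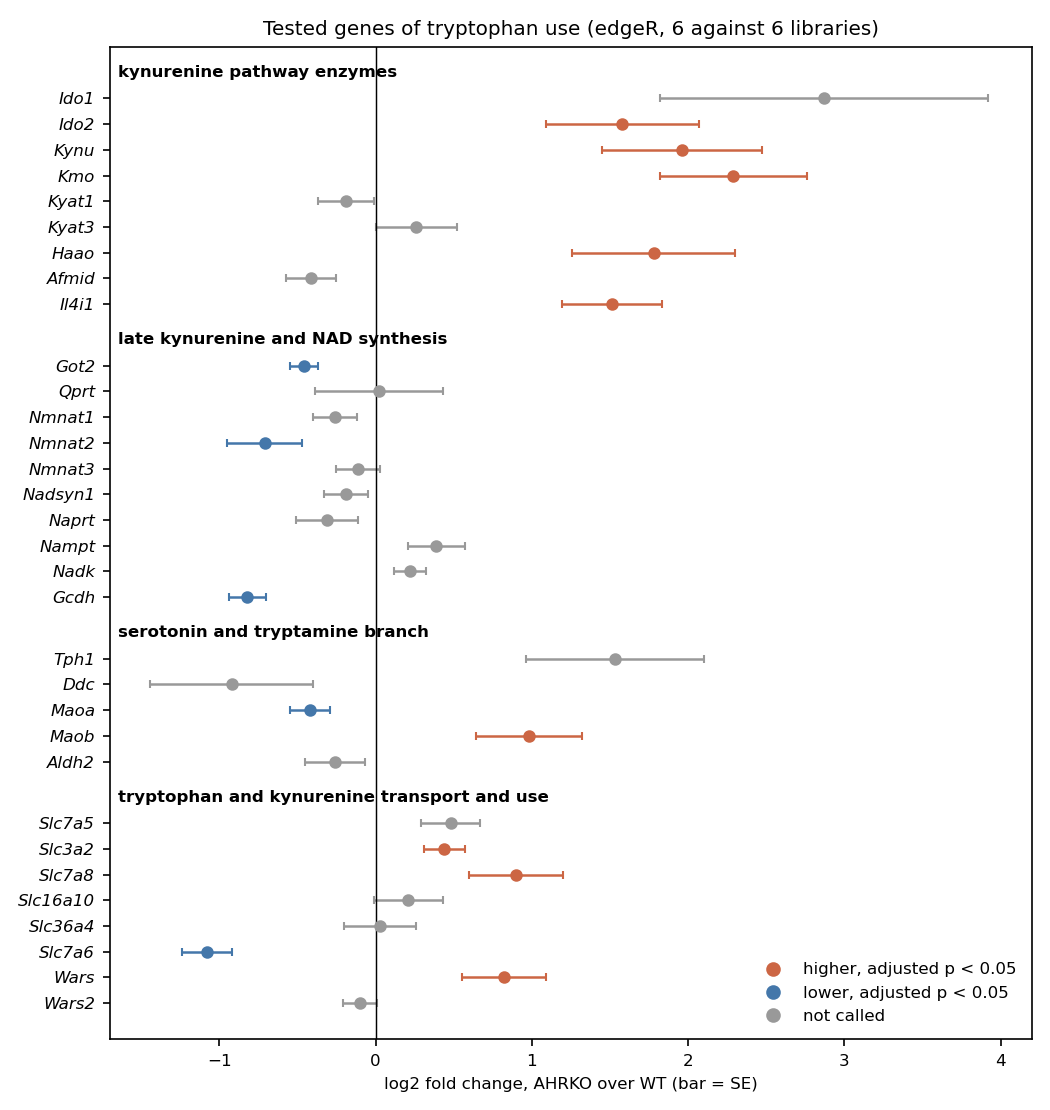
Log2 fold change (AHRKO over WT) with its SE for the tested members and the tested genes of 3 other lists of tryptophan use. The called members, from Kmo at 2.29 to Il4i1 at 1.51, lie to the right of every called gene of these 3 lists. Kmo, Kynu and Haao passed the filter on low counts only through their AHRKO libraries, so this contrast cannot serve as support. Maob at 0.98 is the highest called gene of the lists. Tph1, which was not called, lies at 1.53, to the right of Il4i1.

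Of 11 listed genes that sense kynurenine or respond to it 9 were tested, 1 rose and 2 fell, near the 15.9% and 13.6% of all tested genes: Atf4, the effector of the amino acid starvation response, at 0.54 (adjusted p = 0.0266), Arnt, the partner of AHR, at -0.24 (adjusted p = 0.0378), and Ahrr, a repressor that AHR induces, at -1.0 (adjusted p = 0.0476, quasi-likelihood test of edgeR for all). Ahrr had 1.5 ± 0.369 CPM in WT and 0.75 ± 0.501 in AHRKO (SD, n = 6), with 1.72 in AHRKO replicate 1 and the 5 remaining AHRKO libraries at 0.342 to 0.81, below all WT. Cyp1a2 was at 0 counts in all libraries and Cyp1a1 averaged 0.0155 CPM in WT and 0.019 in AHRKO, both being classical AHR targets. Named after their values were seen, Cyp1b1, Tiparp and Nqo1 of this list were not called. They stood at 0.07, -0.39 and -0.12 (adjusted p = 0.94, 0.241 and 0.737, edgeR's quasi-likelihood test). Without AHRKO replicate 1 Cyp1b1 stood at -0.82 and was not called (adjusted p = 0.0599).

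Many markers of leukocytes were higher in AHRKO as well. All 10 leukocyte genes rose, among them Cd52 at 2.33, where 15.9% of all tested genes rose. Among macrophage and monocyte genes 9 of 10 rose, with Ly6c2 at 4.34 and a median log2 fold change of 1.56 over the list. Mrc1 was not called, at 0.71. Of 10 dendritic cell genes 9 rose, with Itgax at 1.77. The summed level of the 10 was 195 to 316 CPM in WT and 365 to 774 in AHRKO. For B cells 4 of 8 genes were tested and 3 rose, with Cd22 at 2.21. For T and NK cells 9 of 9 rose, with Cd3e at 3.05. For neutrophils and mast cells 3 of 8 rose, all of them mast cell genes: Cpa3 at 1.91, Mcpt4 and Fcer1a. The 4 neutrophil genes S100a8, S100a9, Csf3r and Cxcr2 did not pass, at 1.02 to 1.38 (adjusted p = 0.0743 to 0.17, edgeR's quasi-likelihood test). Low genes of these marker lists passed the filter on low counts only through their AHRKO libraries. Among them were Xcr1, at 0.042 to 0.307 CPM in WT, and Cd8a, at a WT median of 0.0942 CPM. Counts of lists that hold such genes cannot serve as support beside the 15.9%. Summed macrophage genes ran from 423 to 988 CPM in WT and from 582 in AHRKO replicate 5 to 3984 in AHRKO replicate 1. Whether these values vary together with those of the members, and the part of each cell type, was not tested.

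Markers of the tumour epithelium and of stroma gave few calls. Of 8 ductal genes none passed in either direction with edgeR, while 1 was lower at an unadjusted p under 0.05 and 1 lower with each of DESeq2 and limma-voom. Among 8 fibroblast genes none passed and none was under 0.05 unadjusted, DESeq2 called 0 and limma-voom called 2 lower. In the endothelial list of 8 genes, the acinar list with 1 of 8 tested and the hepatocyte list with 2 of 8 tested, edgeR, DESeq2 and limma-voom called 0 and no gene had an unadjusted p under 0.05. Without AHRKO replicate 1, 5 fibroblast genes were lower, and 1 ductal gene was higher and 1 lower.

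For each called member the 3 genes with the most similar profile were taken. Likeness was the mean absolute difference over the 12 libraries between log2 CPM values, each gene centred on its WT mean. Nearest to Ido2 were H2-T24 and H2-T22, nonclassical MHC class I genes, at differences of 0.33 and 0.36, with Trim21, an interferon-induced antibody receptor, at 0.36. Nearest to Kynu were H2-DMb2, a class II peptide loading gene, at 0.43, Sult1a1, a sulfotransferase gene, at 0.45, and Tspan32 at 0.45. Napsa and Gprc5c, each at 0.28, and H2-DMb2 at 0.29 were nearest to Kmo. Rhoh and Rnf144b, each at 0.25, and Ppp1r14a at 0.26 were nearest to Haao, and Fam213b at 0.19, Ppp1r14a at 0.22 and the cytokine receptor gene Il2rg at 0.22 were nearest to Il4i1. With a prior count of 0.5 in place of 2, 10 of these 15 pairs were found again.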

How the data were processed

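Poly-A selected RNA of about 100 mg of tumour was sequenced on an Illumina instrument, per the labels' protocols. The growth text describes cultured cells with test compounds, but no sample label names a compound. The authors deposited raw read counts per Ensembl gene. Reads were handled with HISAT2, SAMtools, HTSeq and DESeq2 on mm10, per the submitters' processing notes. The sources used here do not give versions, annotation or strand setting.

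Symbols, positions and exon lengths were joined by identifier from GENCODE M21 (42462 of 43432 genes matched). Genes were kept by edgeR's filterByExpr, which left 15449, scaled by TMM, and compared with edgeR's quasi-likelihood test over 6 WT and 6 AHRKO libraries, in a two-sided test at a Benjamini-Hochberg adjusted p of 0.05 across the whole tested table. SE is the log2 fold change over the root of F. CPM uses TMM-scaled totals, log2 CPM a prior count of 2. Tools were edgeR 4.0.16, DESeq2 1.42.0 and limma 3.58.1 under R 4.3.3. The fit was tested on simulated data.

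Named were all members, up to 6 called genes of each pathway list, up to 3 of each marker list with the smallest p, and for each called member the 3 most alike genes with a mean log2 CPM of at least 1. An item of these lists is not reported here. The members and lists were chosen with earlier results of these data known. The lists covered late kynurenine and NAD synthesis, serotonin and tryptamine, transport, kynurenine sensing, inducers of Ido1 and 11 cell types. Alternatives were DESeq2, limma-voom with quality weights, RLE and upper-quartile scaling, no filter, a stricter filter, a replicate block, another prior count and leaving out each library. No pair of libraries agreed within sampling noise (lowest chi-squared per degree of freedom 13.6). Limits from depth cover counting error only, as the counts are not of unique molecules.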

Additional observations from a re-analysis of the deposited data

Results flagged for a closer look

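Among 20 groups of 6 values (10 genes in 2 groups), 3 held a library far from the rest by Dixon's test at the 95% level, where chance flags about 1 in 20. Ido1 in WT replicate 4 was at 6.65 CPM, with the next WT library at 0.428, a gap of 0.936 of the group's range. Haao in AHRKO replicate 1 was at 5.58 CPM, with the next at 1.27, a gap of 0.905 of the range. Kmo in AHRKO replicate 1 was at 12.5 CPM, with the next at 5.93, a gap of 0.65 of the range.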

How the results depend on the processing

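For the 9 tested members the sign of the log2 fold change did not reverse under any of the 20 alternatives. Some genes of the other lists did change sign without AHRKO replicate 1. Among them were Cyp1b1 (0.07 to -0.82), Qprt (0.02 to -0.4) and the fibroblast gene Dcn (0.19 to -0.56), not called in either fit. Of the members, Kynu, Kyat1 and Kyat3 kept their side of the threshold under all 20 alternatives. The number of members called higher was 6 with DESeq2 and with limma-voom, 5 under each other scaling or filter, 3 to 6 with 1 library left out (3 without WT replicate 1 or 5), and 5 without AHRKO replicate 1 and WT replicate 4 together, a setting chosen after the data were seen. In that setting Haao stood at 0.92 (adjusted p = 0.0507) and Ido1 at 5.2 (adjusted p = 0.001). The number called lower was 1 with DESeq2 and with limma-voom, Afmid, and 0 to 1 with 1 library left out. Over all genes, leaving out 1 library gave 1822 to 2980 genes higher and 1632 to 2778 lower, against 2451 and 2106.

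Same-numbered WT and AHRKO libraries did not deviate together (correlations of -0.468 to 0.0292, none the best for its own number). No pairing by number was seen, but 6 numbers are too few to exclude one. With the replicate block, 1114 genes were higher and 1240 lower, and 2 members were higher: Ido1 at 4.65 (adjusted p = 0.0263) and Kynu. Ido2 (adjusted p = 0.161), Kmo (0.0538), Haao (0.103) and Il4i1 (0.0505) were not called. Kynu, Haao and Tdo2 had at most 24 counts in any WT library, which limits what these depths can show for them.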
